A study of Mus musculus with 6 samples.

Results

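The miR-17-92 cluster is a group of 6 miRNA hairpins, mir-17, mir-18a, mir-19a, mir-20a, mir-19b-1 and mir-92a-1, that are cut from 1 non-coding host transcript, Mir17hg. They were taken by name from the 898 miRNA genes of a small-RNA sequencing table. The cells were of E14Tg2a, a mouse embryonic stem cell (ESC) line. Of the libraries, 3 were made from ESCs with leukemia inhibitory factor (LIF), which keeps them pluripotent, and 3 from monolayers without LIF after 48 hours in 1 µM retinoic acid (RA), called neuronal cells (NCs) by the study. All 6 libraries came from the same line at passages 37 to 40, each from 2 plates of 60 mm, so the groups describe a single line. The labels number the libraries of each group as replicates but do not tie each to a separate culture. The p-values given here measure only the spread between these libraries.

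A polycistronic miRNA cluster is transcribed as 1 long RNA, from which Drosha and then Dicer cut each hairpin into a mature miRNA. A mature miRNA finds its target mRNAs mainly through its seed, bases 2 to 8 counted from the 5′ end, so miRNAs with the same seed form a family with shared targets. The cluster is known as an oncogenic and proliferation-linked locus driven by MYC and E2F factors, it is expressed in ESCs and embryonic tissue, and its targets include regulators of the cell cycle, the TGF-β pathway and BIM.

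The values are normalized counts, that is, reads scaled by the size factor of their library. The table gave the mean of each group, and the whole reads of single libraries were recovered from those means, for all 6 members in all 6 libraries. The libraries were named A, B and C from the largest to the smallest size factor, which ran from 2.31 to 0.547, and the letters pair no cultures. Library C of each group stood apart from A and B. In 235 miRNAs whose means reached 20 in both groups, the log2 difference between library C and the mean of A and B had an SD of 1.30 in ESCs and 1.19 in NCs. Between A and B the SD was 0.300 and 0.232. The tests and the values of the abundant members are therefore also given for libraries A and B alone. The cells matched their labels in part. All 12 miRNAs detected from the miR-290 and miR-302/367 clusters, which mark ESCs, had lower means in NCs, and their share of the summed signal was 12.0% in ESCs and 1.96% in NCs. All 10 miRNAs listed for RA response and neural cells had higher means in NCs, where they made up 50.7% of the signal, but mir-10a alone held a mean of 754551, and the 3 genes of mir-124, a marker of neurons, had means of at most 6.02. Of 7 muscle, liver and blood miRNAs in the table, 4 muscle genes were at 0 in both groups, and mir-142, a miRNA of blood cells, had means of 924 in ESCs and 357 in NCs. Whether this moved the cluster's values was not tested.

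The 6 hairpins lie on the plus strand of mouse chromosome 14 (GRCm38) between 115043671 and 115044506, a stretch of 836 bases. In the GENCODE M21 annotation all 6 fall within exon 2 of Mir17hg (exon 115043271 to 115046727, gene 115042879 to 115046727), separated by 35 to 96 bases. They carry 4 different seeds. The mature strands are shown in their order along the transcript, as annotated by RefSeq on GRCm38.p6, with the seed in capitals, because the results turn on which members share one.
miR-17-5p: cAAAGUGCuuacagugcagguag
miR-18a-5p: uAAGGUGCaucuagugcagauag
miR-19a-3p: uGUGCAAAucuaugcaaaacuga
miR-20a-5p: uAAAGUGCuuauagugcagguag
miR-19b-3p: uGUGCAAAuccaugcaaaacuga
miR-92a-3p: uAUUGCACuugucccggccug
miR-17-5p and miR-20a-5p share the seed AAAGUGC and differ at 2 bases, C1U and C12U, written as the base of the first-named miRNA, the position from its 5′ end and the base of the second. miR-18a-5p differs from miR-17-5p at 6 positions, and 1 of them, A4G, is in the seed, which makes it AAGGUGC. miR-19a-3p and miR-19b-3p share GUGCAAA and differ only by U11C. miR-92a-3p stands alone within the cluster with AUUGCAC. The table counted reads per hairpin and did not separate its arms. The matures are 21 to 23 bases long, and levels were not divided by length.

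The cluster was measured at a moderate level, and its summed level did not separate the groups. The 6 members together had 9364, 8917 and 4096 normalized counts in ESC libraries A, B and C, and 13163, 13252 and 5749 in NC libraries A, B and C. NC library C was thus below ESC libraries A and B, and the groups overlapped. The means were 7459 ± 2921 in ESCs and 10721 ± 4306 in NCs (SD, n = 3 each), a ratio of 1.44 (two-sided exact permutation test, p = 0.5, where 3 against 3 libraries cannot go below 0.1). The ratio was 1.44 in the deeper libraries A and B and 1.40 between the 2 shallowest libraries. On the log2 scale it was 0.52, and it moved to 0.23 without ESC library C and to 0.82 without NC library C. The ratio was 1.03 when both groups were scaled to the same total, and the cluster held 0.647% of the signal in ESCs and 0.669% in NCs. That total includes mir-10a. On the log2 scale the ratio was 0.05 at equal totals and 0.96 when mir-10a was left out of the total. It was 0.58 when centred on the median log2 difference.

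mir-17, which heads the transcript, was the most abundant member in all 6 libraries. It had 3135, 2985 and 1924 normalized counts in ESC libraries A, B and C and 4570, 4531 and 3266 in NC libraries A, B and C. Every NC library was above every ESC library, and it was the 1 member of 6 without overlap. Of 324 resolved miRNAs whose mean reached 10 in a group, 17.3% were without overlap and higher in NCs, so 1 of 6 is near the background. Its mean went from 2681 ± 660 to 4122 ± 742 (SD, n = 3), a ratio of 1.54.

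mir-20a, the other carrier of the AAAGUGC seed, had 2540, 2600 and 833 normalized counts in ESC libraries A, B and C. In NC libraries A, B and C it had 3644, 3305 and 1438. Within A and B both NC values were above both ESC values, with a ratio of 1.35, and between the C libraries the log2 difference was 0.79. Within A and B, 5 of the 6 members were without overlap and higher in NCs, against a background of 38.3%. All 6 are cut from the same transcript, so they are not independent of each other. The 5 include mir-19a, with 13.6 and 13.9 normalized counts in ESC libraries A and B and 14.7 and 18.4 in NC libraries A and B. Its 13 reads in ESC library B have an exact Poisson interval of 6.92 to 22.2 reads, so its separation is weak. For mir-20a the groups overlapped because NC library C lay below ESC libraries A and B. Its means were 1991 ± 1003 and 2796 ± 1188 (SD, n = 3).

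mir-18a, the next hairpin after mir-17, differed least between the group means among the 4 abundant members. It had 1277, 1221 and 316 normalized counts in ESC libraries A, B and C and 1478, 1257 and 510 in NC libraries A, B and C. It was the 1 member whose groups overlapped within A and B as well, with a ratio of 1.09 there. The means were 938 ± 539 and 1082 ± 507 (SD, n = 3).

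mir-92a-1, the last hairpin, was the most uneven of the 4 abundant members in NCs. It had 2383, 2082 and 1014 normalized counts in ESC libraries A, B and C and 3430, 4118 and 532 in NC libraries A, B and C. The NC values of A and B were above all ESC values, with a ratio of 1.69 within A and B, the largest of the 6 members. NC library C was below all ESC libraries, and the log2 difference between the C libraries was -0.93. The means, 1826 ± 720 and 2693 ± 1903 (SD, n = 3), therefore hide opposite directions in the deeper and the shallowest libraries.

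The miR-19 hairpins were counted at a small fraction of their neighbours. mir-19a had 22, 13 and 1 reads in ESC libraries A, B and C and 34, 18 and 1 in NC libraries A, B and C. mir-19b-1 had 24, 14 and 4 reads in the ESC libraries and 60, 22 and 1 in the NC libraries, in the same order. A single read has an exact 95% Poisson interval of 0.0253 to 5.57 reads, which covers counting error only, so the C libraries say little of this family. The mean normalized counts were 9.75 in ESCs and 11.6 in NCs for mir-19a, and 12.3 and 16.7 for mir-19b-1. Although mir-17 and mir-19b-1 are cut from the same RNA, the mean of mir-17 was 217 times that of mir-19b-1 in ESCs and 246 times in NCs. mir-17 ranked 33rd among the miRNAs in ESCs by mean, and mir-19a ranked 322nd.

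**Figure D1:**
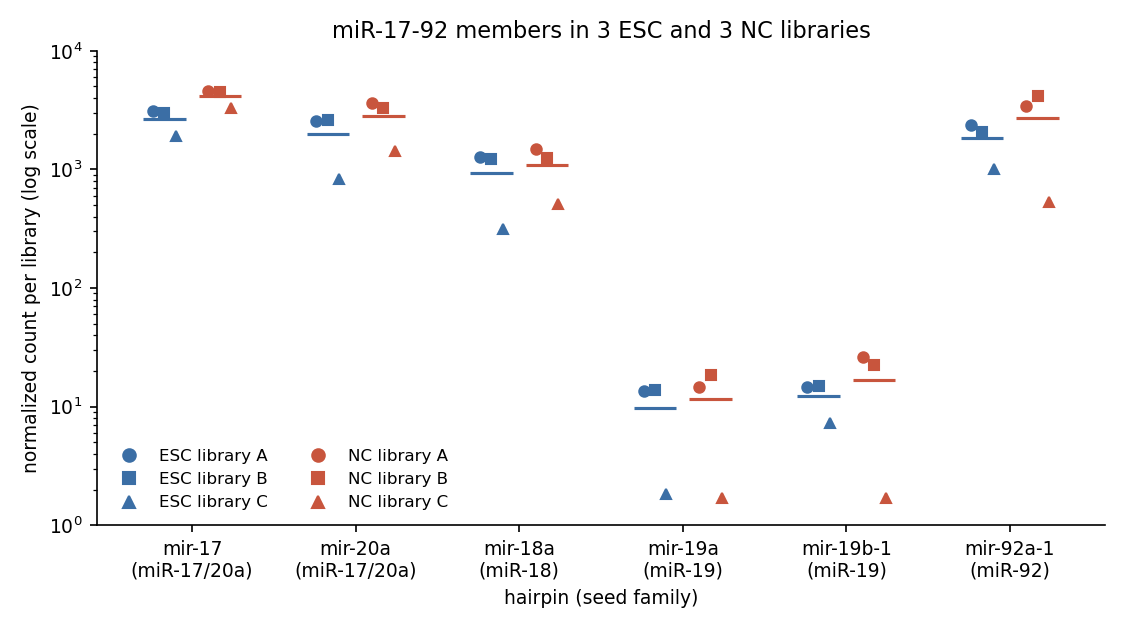
Normalized count of each hairpin (log scale) in 3 ESC and 3 NC libraries, with a horizontal line at each group's mean and library C drawn as a triangle. The triangles lie below the circles and squares of their group for each of the 6 members, and the miR-19 hairpins lie at 26.0 or lower while mir-17 lies at 1924 or higher in every library.

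The order of the levels was much the same in both groups. mir-17 came first in all 6 libraries, mir-20a and mir-92a-1 came next, then mir-18a, and the miR-19 hairpins came last. mir-20a and mir-92a-1 could not be ordered, because mir-92a-1 was above mir-20a in ESC library C and NC library B and below it in the other 4. mir-19b-1 had more reads than mir-19a in 5 of 6 libraries and the same number, 1, in NC library C.

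To test which members differ between NCs and ESCs, limma-voom was fitted to the recovered reads of 319 miRNAs. With all 6 libraries and no term for library C, 51 miRNAs were called at an adjusted p-value under 0.05 (16.0%), and 32 of them were higher in NCs (10.0%). None of the 6 members was called, and 0 had an unadjusted p under 0.05, in limma-voom and in limma-trend. The log2 fold change (FC) of mir-17 was 0.64 (SE 0.304, adjusted p = 0.247), and the other 5 lay between 0.21 and 0.56 with adjusted p-values of at least 0.637. The 95% interval for mir-17 ran from -0.08 to 1.36, and that for mir-92a-1 from -1.67 to 2.13, so the latter spans changes of over 2-fold in both directions. The median FC of the members was 0.32, against -0.06 over all miRNAs tested.

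With library C of each group entered as a covariate, the spread fell and the AAAGUGC pair passed the test. The covariate gives both C libraries 1 common shift, although the letters pair no cultures, and the errors and p-values rest on that assumption. The shifts were unlike for mir-92a-1, whose library C was at 0.454 of A and B in ESCs and 0.141 in NCs. mir-17 was higher in NCs by 0.62 on the log2 scale (SE 0.107, adjusted p = 0.000854) and mir-20a by 0.53 (SE 0.121, adjusted p = 0.00523). mir-18a had 0.30 (adjusted p = 0.134), mir-92a-1 0.34 (0.309), mir-19b-1 0.50 (0.278) and mir-19a 0.16 (0.697). This fit called 45.1% of all miRNAs, 23.5% of them being called and higher in NCs, so 2 of 6 members called is not a large share.

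In libraries A and B alone, 3 members were called. This fit has 2 libraries per group and leaves out those seen to stand apart in these same data. Its errors and p-values therefore measure only the spread that remains. mir-92a-1 joined with 0.73 (SE 0.127, adjusted p = 0.000265), beside mir-17 with 0.57 (SE 0.106, adjusted p = 0.000493) and mir-20a with 0.44 (SE 0.112, adjusted p = 0.00482). mir-19a had 0.20 (adjusted p = 0.645). mir-19b-1 had an FC of the same size as mir-92a-1, 0.72, with a larger error (SE 0.300, adjusted p = 0.0591). mir-18a had 0.14 with an interval of -0.14 to 0.42. Here 50.2% of 327 miRNAs were called and 28.4% were called higher in NCs. mir-17 and mir-20a were thus called under both treatments of the C libraries, and mir-92a-1 under 1 of them. Both treatments use the same A and B libraries, so they are not independent of each other.

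**Figure D2:**
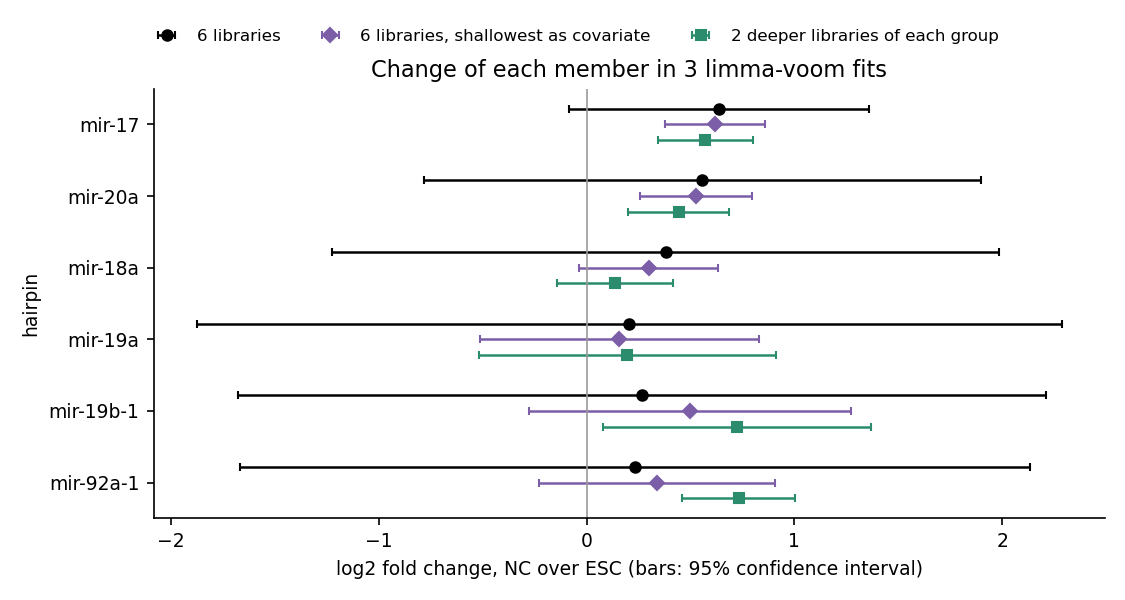
Log2 fold change of each member, NC over ESC, with its 95% confidence interval, in limma-voom with 6 libraries, with library C of each group as a covariate, and with libraries A and B alone. The intervals of mir-17 and mir-20a lie above 0 in the last 2 fits, those of mir-92a-1 and mir-19b-1 only with A and B alone, and those of mir-18a and mir-19a cross 0 in all 3.

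The size of all these changes is relative to how the groups are scaled. Scaling both groups to the same total of means moved each log2 FC by -0.48, and by 0.44 if mir-10a was left out of the total. At equal totals mir-17 kept 0.14, mir-92a-1 0.08 and mir-20a 0.01, while mir-18a, mir-19a and mir-19b-1 turned to -0.27, -0.24 and -0.06. With mir-10a left out of the total, the members ran from 0.64 for mir-18a to 1.06 for mir-17. Comparisons between members within a library do not depend on this scaling, and are given next. In bulk libraries a change in the number of cells that express a miRNA and a change in its amount per cell cannot be told apart.

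Relative to mir-17 in the same library, no other member differed between the groups beyond its spread. The log2 ratio of mir-18a to mir-17 was -1.30, -1.29 and -2.60 in ESC libraries A, B and C and -1.63, -1.85 and -2.68 in NC libraries A, B and C. It was lower in NCs by 0.45 within A and B and by 0.08 between the C libraries, but the groups overlapped (exact permutation test, p = 0.5). mir-20a had the smallest group difference of the 5 ratios to mir-17, -0.085 on the log2 scale (NC minus ESC). It stood at 0.810, 0.871 and 0.433 of mir-17 in the ESC libraries and 0.797, 0.729 and 0.440 in the NC libraries, so it was lower in library C of both groups. mir-92a-1 stood at 0.760, 0.698 and 0.527 of mir-17 in the ESC libraries and at 0.751, 0.909 and 0.163 in the NC libraries. Over the 5 ratios computed, exact two-sided p-values ran from 0.5 to 0.9, all 0.9 after Benjamini-Hochberg adjustment.

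By seed family, the AAAGUGC pair made up most of the cluster's normalized counts. It held 62.6% of the summed level in ESCs and 64.5% in NCs, the miR-92 family held 24.5% and 25.1%, the miR-18 family 12.6% and 10.1%, and the miR-19 family 0.296% and 0.265%. The pair held between 59.1% and 67.3% in 5 libraries and 81.8% in NC library C, where miR-92 held 9.25%. The share of miR-18 was 13.6% and 13.7% in ESC libraries A and B and 11.2% and 9.49% in NC libraries A and B, while in library C it was 7.72% in ESCs and 8.86% in NCs. Whether shares of counts match the amounts of the different mature miRNAs was not tested.

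**Figure D3:**
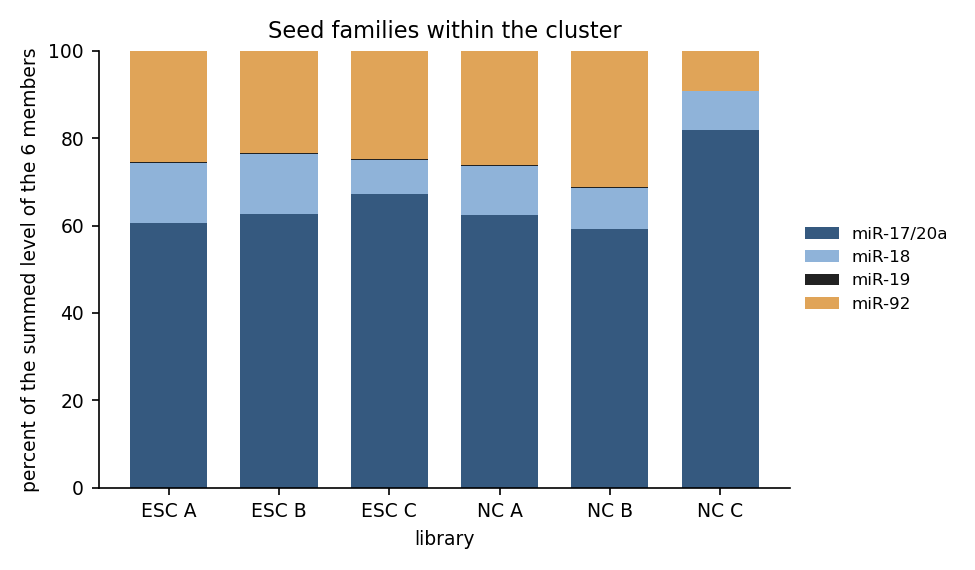
Percent of the summed level of the 6 members held by each seed family in each library, as stacked bars from 0 to 100%. NC library C stands apart, with 81.8% for miR-17/20a and 9.25% for miR-92, and the miR-19 band, at most 0.323%, is barely visible.

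Library C did not differ from A and B alike for all members. mir-17 was nearest to its level in A and B, at 0.629 of it in ESCs and 0.718 in NCs. mir-18a was at 0.254 and 0.373 and mir-20a at 0.324 and 0.414, so those 3 members deviated a little more in ESCs than in NCs. mir-92a-1 went the other way, at 0.454 in ESCs and 0.141 in NCs, and only 1.70% of the 235 miRNAs had a lower deviation in NCs. These ratios are of normalized counts, after division by the size factor. The labels give no batch that would set the C libraries apart.

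**Figure D4:**
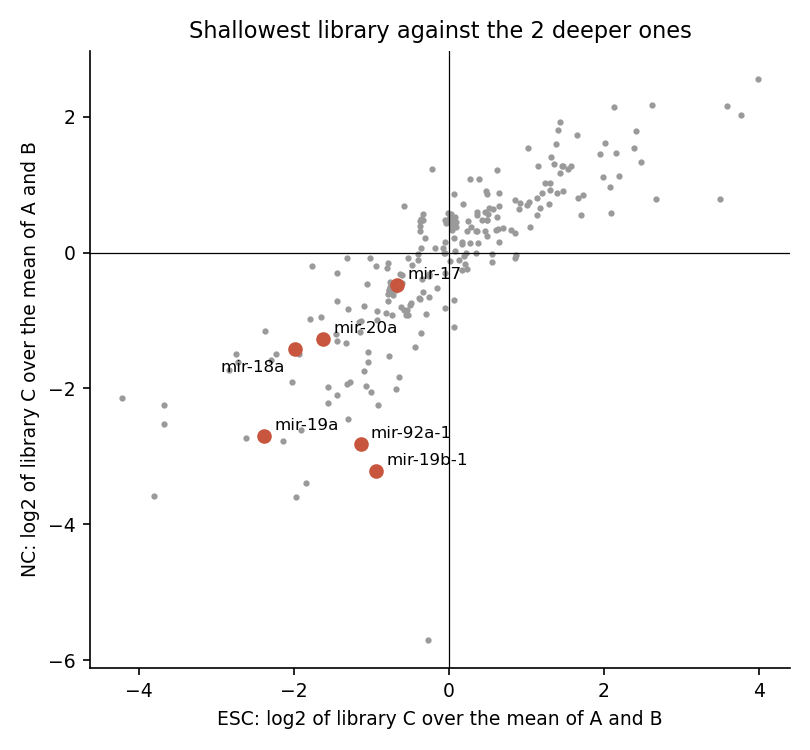
Log2 ratio of library C to the mean of libraries A and B, ESCs on the horizontal axis and NCs on the vertical, with the 6 members as labelled points and other miRNAs with a mean of at least 20 in both groups in grey. The 6 members lie at the lower left, below 0 in both groups, with mir-17 nearest to 0.

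Mouse has a pair of paralogous clusters, miR-106a-363 on chromosome X and miR-106b-25 on chromosome 5, and a further relative, mir-92b, on chromosome 3. miR-106a-363 carries all 4 seeds of miR-17-92, whereas miR-106b-25 carries AAAGUGC and AUUGCAC and mir-92b carries AUUGCAC. The nearest mature relatives of the AAAGUGC and AAGGUGC members are shown with the seed in capitals, since the next comparison sets members against their nearest relatives.
miR-106a-5p: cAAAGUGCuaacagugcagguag
miR-20b-5p: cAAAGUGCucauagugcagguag
miR-18b-5p: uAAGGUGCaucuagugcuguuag
miR-106a-5p differs from miR-17-5p only by U10A, miR-20b-5p from miR-20a-5p by U1C and U10C, and miR-18b-5p from miR-18a-5p by A18U and A20U. The relatives of mir-19b-1 and mir-92a-1, mir-19b-2 and mir-92a-2, give mature strands identical to theirs. How reads that match more than 1 hairpin were assigned is not given in the sources used here, so the values of such pairs are uncertain.

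Several relatives had close means in the 2 groups. mir-20b had means of 2918 in ESCs and 2938 in NCs, mir-18b 1517 and 1515, mir-363 357 and 355, and mir-106b 1033 and 1042. mir-106a was at 1843 and 2262. mir-93 had means of 10635 and 9735, and mir-25 of 425 and 248, where ESC library C alone held 869.6 normalized counts and the ratio within A and B was 1.04. In libraries A and B alone the log2 FC of mir-20b was -0.01 (95% interval -0.24 to 0.23), that of mir-18b -0.02 (-0.27 to 0.23) and that of mir-106a 0.22 (-0.02 to 0.46). None of the 9 relatives tested was called in limma-voom with 6 libraries, and 0 had an unadjusted p under 0.05. With the covariate only mir-92b was called, from 12.4 to 24.7 normalized counts (log2 FC 1.06, SE 0.344, adjusted p = 0.0281), and it was called with A and B alone as well (adjusted p = 0.0209). These fits called 45.1% and 50.2% of all miRNAs tested. mir-92b had only 15, 4 and 13 reads in ESC libraries A, B and C and 38, 18 and 23 in NC libraries A, B and C, and its groups overlapped.

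Set against the nearest relative in the same library, the mean log2 ratio was higher in NCs for each of the 5 pairs, and most evenly for mir-17. Within A and B it was higher for each pair as well. Between the C libraries it was higher except for mir-19b-1 to mir-19b-2, where the direction rests on the pseudocount. mir-19a was not compared in this way. These ratios, 6 with the summed clusters, were chosen after the values had been seen. The log2 ratio of mir-17 to mir-106a was 0.58, 0.53 and 0.49 in ESC libraries A, B and C and 0.93, 0.87 and 0.76 in NC libraries A, B and C. All 3 NC libraries were above all 3 ESC libraries. Library C was still the lowest of each group, but nearer to A and B than it was for the level of mir-17. The difference was 0.32 (means 0.53 ± 0.05 and 0.86 ± 0.09, SD, n = 3; exact two-sided permutation test, p = 0.1, the smallest that 3 against 3 libraries allow, and 0.5 when adjusted over the 6 ratios).

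For mir-20a to mir-20b the log2 ratio was -0.44, -0.36 and -1.24 in the ESC libraries and 0.09, -0.01 and -0.51 in the NC libraries. It was higher in NCs by 0.44 within A and B and by 0.73 between the C libraries, but the groups overlapped (exact permutation test, p = 0.3). For mir-18a to mir-18b the differences were 0.15 within A and B and 0.59 between the C libraries (exact permutation test, p = 0.5). For mir-19b-1 to mir-19b-2 they were 0.33 and 0.03, and for mir-92a-1 to mir-92a-2 0.68 and 0.33, each with groups that overlapped (exact permutation test, p = 0.5 for both). The 0.03 stems from 4 against 7 reads in ESC library C and 1 against 2 in NC library C, and without the pseudocount it is negative. The whole cluster against the summed miR-106a-363 cluster had log2 ratios of 0.27, 0.22 and -0.17 in the ESC libraries and 0.71, 0.74 and 0.12 in the NC libraries, higher in NCs by 0.48 within A and B and by 0.29 between the C libraries (exact permutation test, p = 0.3).

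**Figure D5:**
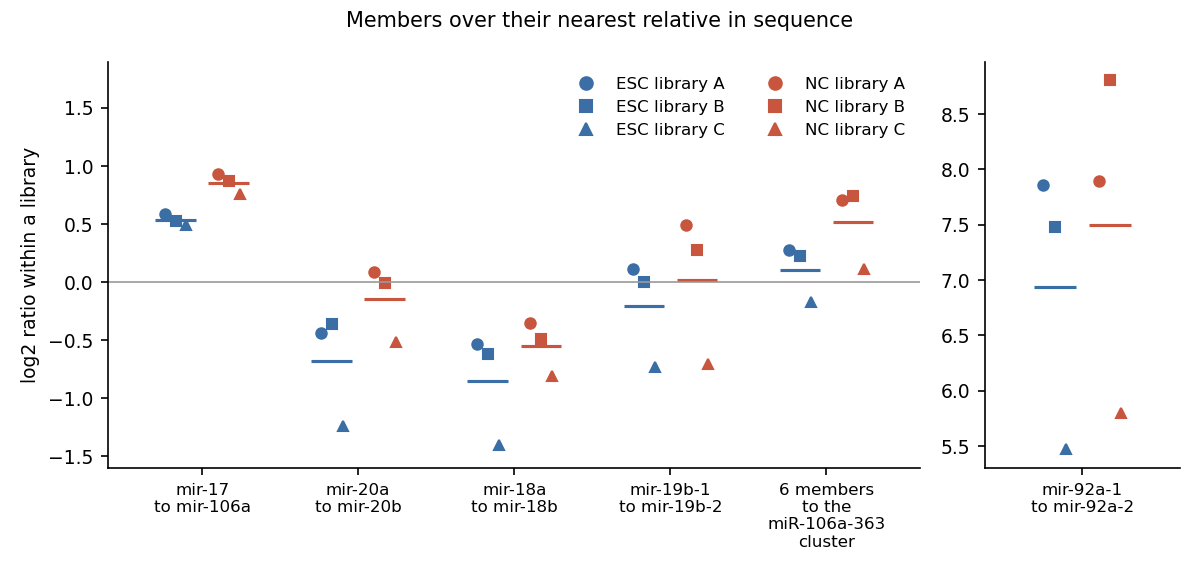
Log2 ratio, within each library, of a member to its nearest relative and of the summed cluster to the summed miR-106a-363 cluster, with lines at the group means (the right panel has its own axis). mir-17 to mir-106a separates the 3 NC from the 3 ESC libraries, and for the other ratios the groups overlap.

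The identical matures were split very differently between their hairpins. mir-92a-1 and mir-92a-2 give the same miR-92a-3p, yet the mean of mir-92a-1 was 131 times that of mir-92a-2 in ESCs (1826 against 13.9) and 268 times in NCs (2693 against 10.1). mir-19b-1 and mir-19b-2, which give the same miR-19b-3p, had nearly equal reads, 24 and 22 in ESC library A and 14 and 14 in ESC library B. In NC library A they had 60 and 42 reads, and in NC library B 22 and 18.

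For each seed, means were summed over every detected hairpin of the table with a RefSeq mature that carries it. Each sum moved less between the groups than the cluster's part of it. The sums are of hairpin counts that hold both arms, not of the amounts of mature miRNA. Names of 522 of the 634 detected miRNAs matched RefSeq, including all 6 members. The AAAGUGC seed, on 6 hairpins, had summed means of 21103 in ESCs and 22895 in NCs, a ratio of 1.08, while its carriers mir-17 and mir-20a together had a ratio of 1.48 and went from 22.1% to 30.2% of it. The largest carrier was mir-93, of miR-106b-25. The AUUGCAC seed, on 7 hairpins, had 2768 and 3410, of which mir-92a-1 made up 66.0% and 79.0%. These shares of group means hide unlike libraries. mir-92a-1 was higher in NCs within A and B, but had 1014 normalized counts in ESC library C and 532 in NC library C. mir-25, another carrier, had 869.6 in ESC library C, which raised the ESC sum. The AAGGUGC seed, on mir-18a and mir-18b, had 2455 and 2596, with 38.2% and 41.7% from mir-18a. The GUGCAAA seed summed to only 35.9 and 41.7 over its 3 hairpins. These sums are of the deposited means and are given with no error. For AAAGUGC the reads of mir-93 in NCs were not resolved.

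Across the 6 libraries, the miRNAs whose log2 levels followed the mean profile of mir-17, mir-18a, mir-20a and mir-92a-1 most closely were mir-340, mir-677, mir-15a, mir-34b and mir-872. Among 274 candidates with a mean of at least 20 in 1 group their Pearson correlations were 0.998, 0.994, 0.992, 0.984 and 0.984, as a description over 6 points that share the low C libraries. The candidates' median correlation was 0.07, and 25 were above 0.9. Each of the 5 had a higher mean in NCs, from a log2 FC of 0.40 for mir-15a to 0.95 for mir-340, which went from 1618 to 3119. mir-20b, mir-18b and mir-106b, with no difference in mean, also followed the profile (0.956, 0.951 and 0.951), whereas mir-363, the last hairpin of miR-106a-363, ran against it (-0.956). The profile itself spanned 11.04 to 11.57 on the log2 scale in libraries A and B of the groups and was 9.73 and 10.05 in the C libraries, in which mir-363 was at 1.22 and 1.30 times its level in A and B.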

How the data were processed

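Small-RNA libraries from 3 ESC and 3 NC samples were grouped by their labels. The authors deposited 1 table of 898 miRNA genes, whose signal columns hold group means of normalized counts, scaled by library size factors; the submitters' notes name DESeq and mm10. The aligner, adapter removal, miRNA annotation and the rule for reads that match several hairpins are not given in the sources used here, and these can change the counts of hairpins that share sequence. The table also holds the authors' fold changes and p-values, which were not used.

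A group mean of 3 libraries is a sum of whole reads, each divided by a size factor, and the means carry 10 decimals, so whole reads were found by enumeration for 98.4% of the 549 miRNAs detected in ESCs and 96.8% of the 602 detected in NCs. Resolved miRNAs held 24.7% and 11.2% of the signal, in 104323 to 450012 reads per library. Recovery and fits were checked on simulated data. The simulated counts for the fits held no shift of library C, so that check does not cover how library C was treated. The libraries carry no replicate number.

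limma 3.58.1 (R 4.3.3) with voom weights and the size factors was fitted to miRNAs that reached 10 reads in 3 libraries, or in 2 libraries in fits with a group of 2, with Benjamini-Hochberg adjustment over all miRNAs tested. Log2 fold changes and ratios of single values used a pseudocount of 1, which understates changes of low miRNAs. Log2 ratios within a library and the summed level of the cluster were compared by exact permutation tests. Shares and the sums by seed were described with no test. A design that assumed counts in the files was met here with recovered reads. Alternatives covered the treatment of library C, filters, size factors, scaling, the pseudocount, limma-trend and leaving out each library.

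Named miRNAs were the 6 members, 9 members of the paralogous clusters and mir-92b, and the 5 miRNAs with the highest Pearson correlation to the profile of members with a mean of at least 100. The mir-10a, mir-124 and mir-142 values were named after they were seen. Members and lists were chosen with earlier results of these data known. Sequences are from RefSeq (GRCm38.p6) and positions from RefSeq and GENCODE M21. Python 3.11.15, numpy 2.4.6, pandas 2.3.3, scipy 1.17.1 and matplotlib 3.10.9 were used.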

Additional observations from a re-analysis of the deposited data

How the results depend on the processing

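No paired analysis was possible because nothing ties a recovered library to a replicate number. The count of members called, 0, became 2 with library C as covariate and 3 with libraries A and B alone, and stayed 0 under the other alternatives run, each fit without 1 library included. At equal totals the log2 FC reversed to -0.27 for mir-18a, -0.24 for mir-19a and -0.064 for mir-19b-1, by the shift itself. limma-trend gave -0.095 for mir-19b-1, and the cause was not tested.

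Leaving out 1 library moved the limma-voom log2 FC from 0.42 to 0.78 for mir-17, 0.02 to 0.96 for mir-20a, -0.38 to 0.86 for mir-18a, -0.31 to 0.73 for mir-19a, -0.58 to 0.92 for mir-19b-1 and -0.27 to 1.10 for mir-92a-1. The reversals came without ESC library C (mir-18a, mir-19a, mir-92a-1), NC library A (mir-19a -0.26, mir-19b-1, mir-92a-1 -0.19) or NC library B (mir-19a -0.13, mir-92a-1), each of which leaves the groups unequal in their share of C libraries. The log2 ratio to mir-17 ranged from -1.06 to 0.25 for mir-19a, -0.40 to 0.18 for mir-20a (0.048 without ESC library A), -1.23 to 0.18 for mir-19b-1 and -0.90 to 0.34 for mir-92a-1. In libraries A and B it was 0.10 for mir-19b-1 and 0.18 for mir-92a-1, and in the C libraries 0.024 for mir-20a. The ratio of mir-19b-1 to mir-19b-2 ranged from -0.038 to 0.59 (-0.010 without NC library A) and that of mir-92a-1 to mir-92a-2 from -0.17 to 1.41 (-0.090 without NC library B), with both reversed without ESC library C. The ratio of mir-17 to mir-106a ranged from 0.28 to 0.37, of mir-20a to mir-20b from 0.25 to 0.72, of mir-18a to mir-18b from 0.023 to 0.46, of the cluster to miR-106a-363 from 0.27 to 0.62 and of mir-18a to mir-17 from -0.76 to -0.0097.

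In the C libraries alone the seed-family shares were 67.3% (ESC) and 81.8% (NC) for miR-17/20a, 7.72% for miR-18 in ESCs, 0.223% and 0.0595% for miR-19 and 9.25% for miR-92 in NCs. Counting mir-19b-2 and mir-92a-2 with their identical matures gave miR-19 0.479% in ESCs. Depth limits the miR-19 hairpins most, with 1 to 4 reads in the C libraries.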
